A study of Homo sapiens with 13 samples.

Results

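In tumours grown from vector-control breast cancer cells, the cells with the most PEBP1 mRNA were set against the cells with the least. There were 179 PEBP1-high and 179 PEBP1-low cells, 358 of the 1569 single cells in the table. The cells were BM1, which was derived from the human line MDA-MB-231 and homes to bone. The control (CTRL) tumours came from BM1-VC cells, which carry the empty vector, and the RKIP tumours from BM1-RKIP-S153E cells, which carry a mutant RKIP. Athymic nude mice received 1000000 cells each, and the tumours were taken 3 weeks later, dissociated, depleted of mouse cells and of dead cells, and loaded on a Fluidigm C1 HT chip. In each of 3 replicate experiments, 1 CTRL and 1 RKIP tumour were processed. The sources used here do not give the promoter of the construct, or whether each line was 1 clone or a pool.

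PEBP1 encodes RKIP, the Raf kinase inhibitory protein. RKIP binds RAF kinases and dampens the RAF-MEK-ERK cascade, and it is known in breast cancer as a suppressor of metastasis that acts upstream of let-7, HMGA2 and BACH1. It also binds other kinases, among them upstream kinases of NF-kB, and its own mRNA is abundant in many epithelial and tumour cells.

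The CTRL tumours gave 772 cells, of which 49 had fewer than 2000 detected genes and were left out. The other 723 were ranked on PEBP1 in counts per 1000000 counts of the cell (CPM) within their tumour, and the highest and the lowest 25% were taken. This gave 55, 65 and 59 cells of each class in tumours 1, 2 and 3. These numbers only name the tumours and carry no order. The same ranking on human PEBP1 in the RKIP tumours, whose cells the first ranking did not use, gave 189 cells of each class out of 759 with at least 2000 detected genes, after 38 of 797 were left out. The names of chip positions repeat between tumours, with 551 of them occurring more than once, so a shared name does not mark a shared cell.

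The PEBP1 values chose the cells and are given as a description. In the PEBP1-high cells, the sums held PEBP1 at 788, 671 and 618 CPM in CTRL tumours 1, 2 and 3, and those of the PEBP1-low cells at 28.7, 62.8 and 50.3 CPM. The ranking cut a continuous range, as the plot of PEBP1 by cell shows. The lowest PEBP1-high cells stood at 480.05, 391.9 and 401 CPM and the next cells below them at 476, 391 and 399 CPM. The highest PEBP1-low cells stood at 67.8, 114 and 110.4 CPM and the next cells above them at 71.7, 114 and 110.5 CPM. PEBP1 was counted in nearly every cell: only 17, 13 and 8 eligible cells of the CTRL tumours had no PEBP1 count.

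**Figure D1:**
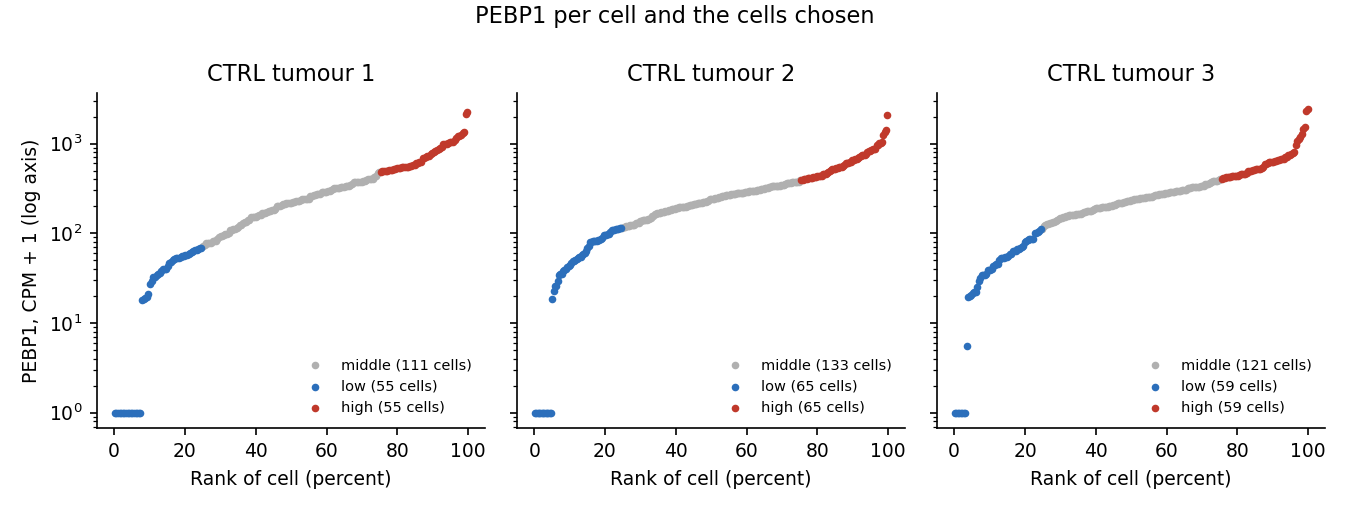
PEBP1 in each CTRL cell with at least 2000 detected genes, as CPM + 1 on a log axis, against the rank of the cell within its tumour in percent, with PEBP1-low cells in blue, PEBP1-high cells in red and the cells between them in grey. The curves run without a gap through both class limits, and the row of points at 1 holds the 17, 13 and 8 cells with no PEBP1 count.

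PEBP1 did not stand out for cell-to-cell spread. With each cell reduced to 20000 counts, its mean was 6.57, 5.96 and 6.17 counts and its variance was 8.81, 5.41 and 7.0 times the mean. Its squared coefficient of variation was 1.34, 0.907 and 1.13 in tumours 1, 2 and 3. Genes of a similar mean, 312, 277 and 251 in number, had medians of 2.78, 1.51 and 1.27, and 45, 51 and 104 of them lay below PEBP1.

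The 2 classes differed in depth, which bears on every comparison that follows. The median PEBP1-high cell held 129408, 57350 and 84234 counts in the 3 CTRL tumours, and the median PEBP1-low cell 77299, 46642 and 51741. The ratios were 1.67, 1.23 and 1.63, so the PEBP1-high cells were deeper in 3 of 3 tumours. Detected genes followed, with medians of 3271, 4326 and 4967 against 2800, 3988 and 3859. The RKIP tumours showed the same order, with ratios of 1.95, 1.21 and 1.56. No test was made, since total counts are the denominator of the value that chose the cells. The Spearman correlation of total counts with PEBP1 CPM over cells was 0.25, 0.081 and 0.19 in the CTRL tumours. Ranking PEBP1 within 4 bins of total counts brought the depth ratios to 0.979, 0.983 and 0.972. Median detected genes were then 3162, 4369.5 and 4963 in the high against 3171, 4150 and 4339 in the low cells. In tumours 2 and 3 they thus stayed higher in the PEBP1-high cells. Values from that ranking are given beside those of the named genes and of several gene lists. Values with cells thinned come from cells of at least 20000 counts, each reduced to that depth and ranked on PEBP1 again. The classes are then not the same sets of cells. Of the PEBP1-low cells in the CTRL tumours, 36, 16 and 26 then had no PEBP1 count, against 17, 13 and 8 in the main ranking.

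**Figure D2:**
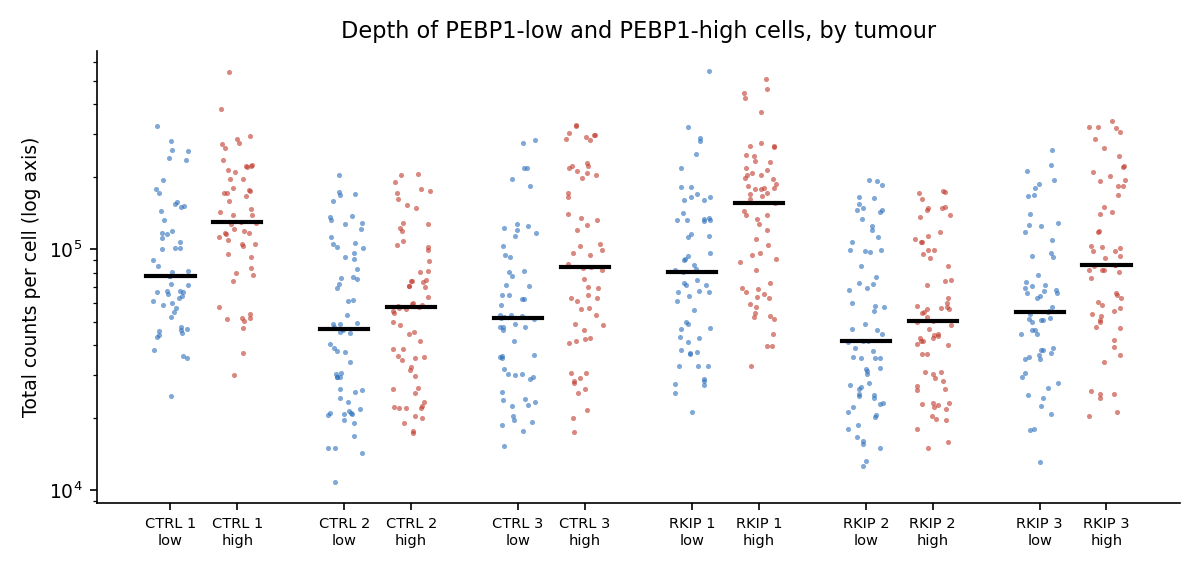
Total counts of each PEBP1-low (blue) and PEBP1-high (red) cell on a log axis, by tumour, with black bars at the medians. The red median lies above the blue one in each of the 6 tumours, by 1.67, 1.23 and 1.63 times in CTRL and by 1.95, 1.21 and 1.56 times in RKIP tumours, and the clouds of cells overlap widely.

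Both classes carried the markers of the injected line, though single markers differed in level. Of the 6 line markers, 2 had a log2 fold change above 0 and 4 below. KRT19 was at 651 to 1034 CPM in the high against 426 to 596 CPM in the low cells. EGFR was at 125 to 202 against 179 to 242 CPM. VIM, a mesenchymal marker of MDA-MB-231, was counted in 179 of 179 PEBP1-high and 179 of 179 PEBP1-low cells, and the 6 line markers summed to 5986 to 6575 CPM in the high and 5774 to 6404 CPM in the low cells. Of the markers of other cells, 0 of 7 muscle, 0 of 5 adipocyte and 0 of 4 red cell genes were in the table. The 2 of 7 leukocyte genes that were present summed to 60.6 to 103 CPM in the high and 69.8 to 224 CPM in the low cells, nearly all of it LAPTM5. The 2 of 7 fibroblast genes reached at most 6.26 and 9.40 CPM. The 3 of 6 endothelial genes summed to 13.03 to 28.6 CPM in the high and 1.55 to 25.2 CPM in the low cells, and the 3 of 7 keratinocyte genes to 366 to 437 and 278 to 436 CPM. The ranges of these markers of other cells overlap between the classes, and the part of such markers in the results below was not tested. Mitochondrially encoded genes, a usual gauge of cell quality, numbered 0 in the table. Their 24 nuclear pseudogene entries summed to 5493, 7332 and 8576 CPM in the high against 6635, 8613 and 14179 CPM in the low cells, lower in 3 of 3 tumours. The part of RNA quality in the results was not tested.

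The comparison of the classes asked which other genes differ between control tumour cells with much and with little RKIP mRNA. Counts were summed over the cells of each class in each tumour, which gave 3 pairs of sums. Each sum held between 4190780 and 8471012 counts. No gene passed the test: of 12684 genes tested, 0 (0%) had an adjusted p under 0.05 by edgeR's quasi-likelihood test, and the smallest adjusted p was 0.999. At an unadjusted p under 0.05 there were 449 genes (3.54%), 203 (1.6%) with higher and 246 (1.94%) with lower values in PEBP1-high cells. DESeq2 on the same sums called 42 genes (0.331%), 10 (0.0788%) higher and 32 (0.252%) lower, with 970 genes (7.65%) at an unadjusted p under 0.05. Of these 42 genes, 23 had a mean below 5 on the log2 CPM scale. Of the 40 that were also fitted in the RKIP tumours 24 had the same sign there, against 52.5% of all 12042 genes fitted in both arms. DESeq2 called 51 genes (0.402%) in the RKIP tumours, and the 2 sets of calls shared 0 genes. Without tumour 3, edgeR called 2 genes, CHCHD2 at -2.92 and RPS27A at -1.63, both lower in PEBP1-high cells.

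The precision limits what these sums can show. The median standard error (SE) of a log2 fold change was 0.55 for the 2035 genes with a mean of 5 to 6 on the log2 CPM scale. It was 0.36 for the 2162 genes at 6 to 8, 0.21 for the 537 genes at 8 to 10 and 0.14 for the 108 genes at 10 to 12. These SEs are not detection limits, since named genes with a fold change of several SEs did not pass the test either. In all genes the log2 fold change was above 0 for 51.6%, and in the 661 genes with a mean of at least 8 for 62.8%.

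The genes named next are 19 of the 20 that a rule picked, the 10 with the smallest p in each direction with a mean of 5 or more on the log2 CPM scale, and none of them passed the test. Every adjusted p below is 0.999 by edgeR's quasi-likelihood test. Log2 fold changes are PEBP1-high minus PEBP1-low, and CPM values are per 1000000 counts of the scaled sum. Here and in the gene lists below, whether the high and low values overlap is a description only. The share of all genes without overlap is not given, and genes picked by small p tend to lack it.

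MALAT1, a long noncoding RNA that stays in the nucleus, had the smallest p of all the genes at this level. It stood at 5852, 6880 and 6023 CPM in the PEBP1-high cells of tumours 1, 2 and 3 and at 8302, 8940 and 9797 CPM in the PEBP1-low cells. The 2 ranges did not overlap. The log2 fold change was -0.53 (SE 0.09, n = 3 tumours), and the unadjusted edgeR p was 0.000664. Each of the 358 cells had MALAT1 counts, and no cell held more than 11.5% of a sum. With cells ranked within bins of total counts it was -0.36. In a ranking of the same CTRL cells on total counts alone, which shares cells with this one, MALAT1 was at -0.54.

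LGALS1, which encodes the secreted lectin galectin-1, was among the most abundant transcripts. Its values were 11515, 14065 and 12422 CPM in the PEBP1-high and 8858, 12292 and 10198 CPM in the PEBP1-low cells. The ranges overlapped, but within each tumour the high cells had more. The log2 fold change was 0.29 (SE 0.08), 0.20 with cells ranked within bins and 0.17 with each cell thinned to 20000 counts.

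FTL, the light chain of the iron store ferritin, had values in the other direction. It was at 4599, 6695 and 6905 CPM in the PEBP1-high and at 5841, 8821 and 9638 CPM in the PEBP1-low cells, with a log2 fold change of -0.41 (SE 0.08). SQSTM1, which encodes the autophagy receptor p62, was at 279.7, 81.4 and 110.4 CPM against 539, 171 and 321 CPM. Its log2 fold change was -1.19 (SE 0.24), with 1 cell holding up to 51.6% of a sum. With cells ranked within bins FTL had -0.25 and SQSTM1 -1.06, and in the ranking on total counts they had -0.04 and 0.07.

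PSMD8, a subunit of the proteasome's regulatory particle, was at 709, 529 and 531 CPM in the PEBP1-high and at 545, 259 and 285 CPM in the PEBP1-low cells. Its log2 fold change was 0.77 (SE 0.20). CUTA was at 1612, 1372 and 1102 CPM against 919, 931 and 889.8 CPM, with no overlap and a log2 fold change of 0.56 (SE 0.15). COX6C, a subunit of cytochrome c oxidase, was at 323, 420 and 471 CPM against 189, 255 and 309 CPM, at 0.70 (SE 0.20) and with no overlap. In each of these genes the high cells had more in 3 of 3 tumours, and no cell held more than 24.2% of a sum. With cells ranked within bins PSMD8 had 0.61, CUTA 0.55 and COX6C 0.46, and with each cell thinned to 20000 counts they had 0.54, 0.33 and 0.45.

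In most of the other named genes a few cells carried the sums. PAEP, which encodes the secreted glycoprotein glycodelin, was counted in 39 PEBP1-high and 34 PEBP1-low cells. It stood at 50.2, 29.9 and 199 CPM against 8.89, 7.47 and 38.7 CPM, with a log2 fold change of 2.29 (SE 0.45), and in the low cells of tumour 2 a single cell held 87.5% of its counts. HIST1H2BC, a histone H2B gene, was at 146, 33.3 and 14.5 CPM against 733, 64.4 and 61.2 CPM, at -1.80 (SE 0.35), with 90.9% of the low sum of tumour 1 in 1 cell. COPZ1, a subunit of the coat of transport vesicles, was at 458, 1277 and 101 CPM against 112, 832 and 52.2 CPM, at 1.20 (SE 0.29), with 92.4% of the low sum of tumour 2 in 1 cell. Such sums follow single cells. With each cell thinned to 20000 counts and the cells ranked again, COPZ1 had 0.01. With cells ranked within bins PAEP had 2.51, HIST1H2BC -1.61 and COPZ1 0.67.

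Among the rest on the higher side, LINC02657 had 1.64, DAZAP2 1.32 and PGD, an enzyme of the pentose phosphate pathway, 1.23. Ranked within bins they had 0.73, 1.13 and 1.04, and with cells thinned 0.31, 0.81 and 1.20, so LINC02657 lost most of its value in both. On the lower side, COX10, an enzyme of heme A synthesis, had -1.49 and CD55, which shields cells from complement, had -1.38. MRTFB, a coactivator of serum response factor, had -2.70, ZZEF1 -3.56, AL353759.1 -3.20 and THUMPD3-AS1 -1.50. Ranked within bins THUMPD3-AS1 had -0.59, MRTFB -1.95, AL353759.1 -2.58, ZZEF1 -2.80, COX10 -1.18 and CD55 -1.26. With cells thinned MRTFB had -1.61 and AL353759.1 -1.30. THUMPD3-AS1 is an antisense gene, and reads from it and its partner cannot be told apart without a stated strand setting. AL353759.1 had no count in the high cells of tumour 1 and only 0.19 CPM in the low cells, so its direction there rests on almost no counts. Without tumour 1 it had -3.21.

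**Figure D3:**
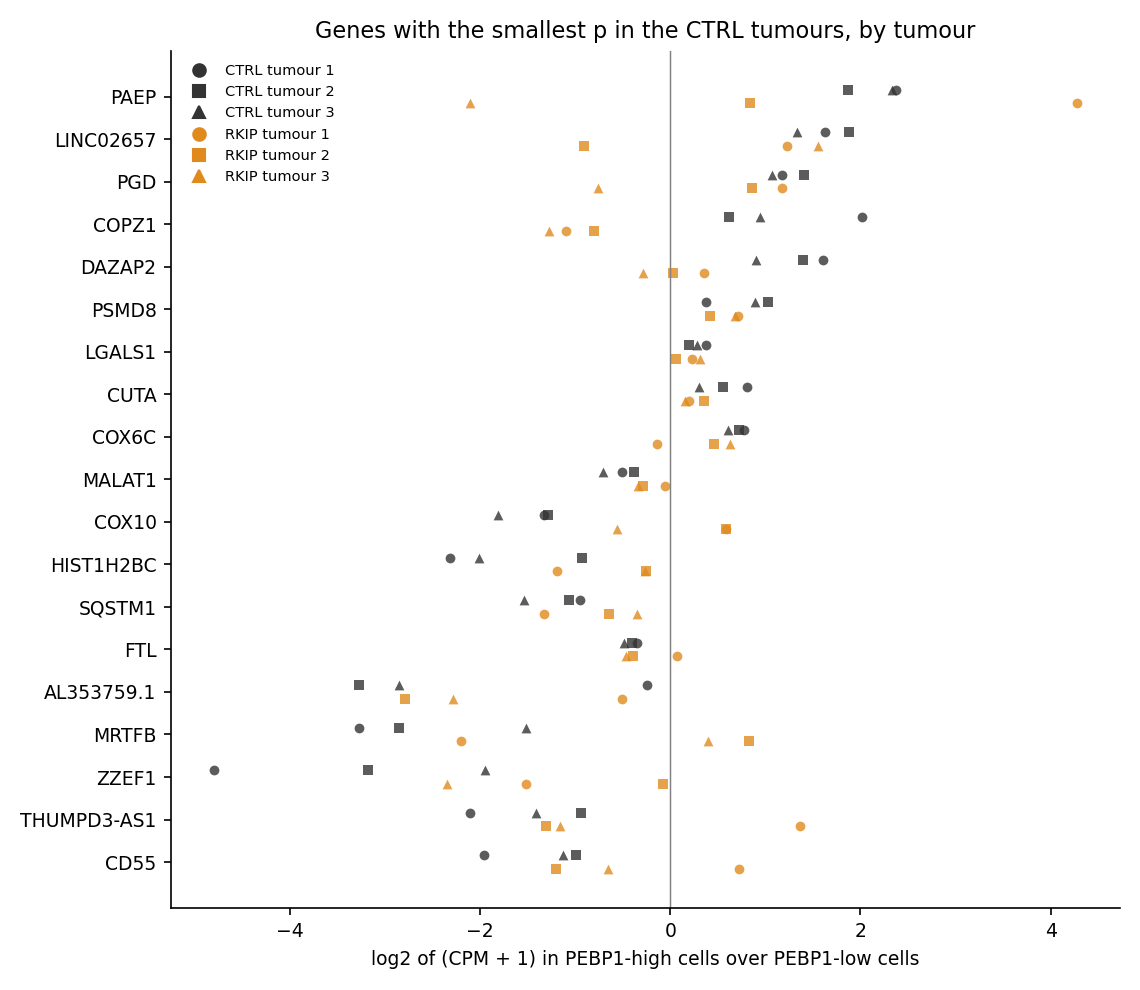
Log2 ratio of CPM + 1 in PEBP1-high over PEBP1-low cells for the 19 named genes in each CTRL tumour (black) and each RKIP tumour (orange), with 1 symbol shape per tumour number. The black symbols lie on 1 side of 0 in every row because the genes were chosen in those tumours, while the orange ones are on the same side in 3 of 3 tumours for PSMD8, LGALS1, CUTA, MALAT1, HIST1H2BC, SQSTM1, AL353759.1 and ZZEF1, and on the opposite side in 3 of 3 for COPZ1.

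The RKIP tumours gave cells that the first ranking did not use. There too, 0 of 12690 genes (0%) passed edgeR's test, the smallest adjusted p was 1.00, and 482 genes (3.8%) had an unadjusted p under 0.05. Of all these genes 13.7% were higher and 11.8% lower in 3 of 3 RKIP tumours. MALAT1 was at 5144, 7240 and 6114 CPM in the PEBP1-high against 5357, 8852 and 7733 CPM in the PEBP1-low cells, a log2 fold change of -0.23 (SE 0.09), lower in 3 of 3 tumours. PSMD8 was at 744, 434 and 448 CPM against 454, 324 and 278 CPM, a log2 fold change of 0.61 (SE 0.16), with ranges that overlapped. LGALS1 was at 12383, 13485 and 14777 CPM against 10552, 12889 and 11896 CPM, at 0.20 (SE 0.07). SQSTM1 was at -0.78 (SE 0.27), FTL at -0.26 (SE 0.12) and CUTA at 0.24 (SE 0.12). Of the named genes, PGD had 0.44, COX6C 0.32, DAZAP2 0.03 and COX10 0.21, with SEs of 0.22 to 0.44.

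Whether the difference between the classes itself differed between CTRL and RKIP tumours was tested with an interaction term. By edgeR, 0 of 13689 genes (0%) passed and 430 (3.14%) had an unadjusted p under 0.05, while DESeq2 called 20 (0.146%). All 6 tumours in 1 fit likewise gave 0 calls among 13689 genes, with 639 (4.67%) at an unadjusted p under 0.05 and a smallest adjusted p of 0.839 by edgeR. In that fit MALAT1 was at -0.38 (SE 0.07), PSMD8 at 0.68 (SE 0.12), LGALS1 at 0.24 (SE 0.05) and SQSTM1 at -0.99 (SE 0.18).

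CTRL and RKIP cells shared no cell, so the log2 fold changes of all genes can be set side by side as a description. Across 12042 genes the Spearman correlation was 0.037, and 52.5% had the same sign in both arms. Across the 661 genes with a mean of at least 8 on the log2 CPM scale it was 0.35, and 441 of them (66.7%) had the same sign in both arms. Genes are not independent replicates, and the depth gap between the classes was present in both arms. Between pairs of CTRL tumours the correlation of the same 661 differences was 0.12, 0.041 and 0.24, and between pairs of RKIP tumours 0.0097, 0.083 and 0.17. Each of these 6 values was below the 0.35 between the averages of the 2 arms.

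**Figure D4:**
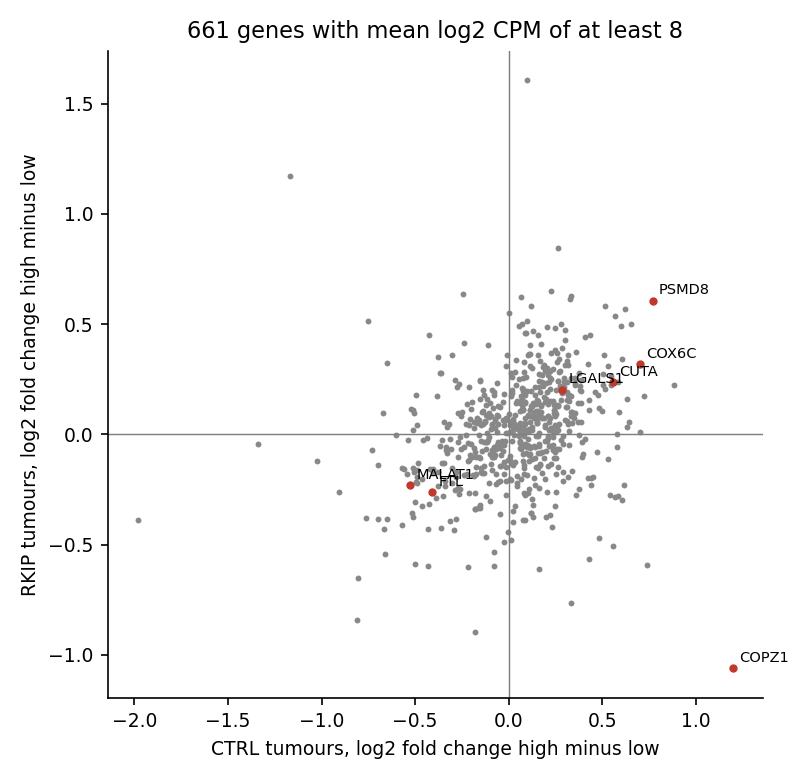
Log2 fold change between PEBP1-high and PEBP1-low cells in the RKIP tumours against that in the CTRL tumours, 1 point for each of the 661 genes that average 8 or more on the log2 CPM scale in the CTRL tumours, with the named genes in red. Of the points, 441 lie at the lower left or upper right. COPZ1 lies farthest out at the lower right, where other genes such as MRFAP1 (0.74 in CTRL and -0.59 in RKIP tumours) also lie.

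The transgene was read out through a separate entry for rat Pebp1. In the CTRL tumours it was counted in 0, 2 and 3 PEBP1-high cells and in 0, 2 and 1 PEBP1-low cells, and these cells carry the empty vector. In the RKIP tumours it was counted in 10, 25 and 35 high and in 3, 36 and 35 low cells. Rat Pebp1 summed to 23.5, 65.3 and 98.3 CPM in cells high for human PEBP1 and to 5.41, 97.2 and 124 CPM in cells low for it. It was higher in 1 and lower in 2 of 3 tumours, and the log2 fold change of 0.30 (SE 0.60) did not pass edgeR's test (adjusted p = 1.00).

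Genes were next grouped by role. A total of 34 lists with 753 different genes was examined, of which 664 were tested, and 0 lists had a member that passed edgeR's test in the CTRL or the RKIP tumours. Among these lists, the markers of skeletal muscle, adipocytes and red cells had no member in the table and so could hold no call. The lists are described by their counts and medians beside all genes, where the median log2 fold change was 0.03 and where 14% of genes were higher and 11.8% were lower in 3 of 3 tumours.

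The pathway that RKIP is known for showed no common direction. Of 17 binding partners and kinase targets of RKIP tested, 9 had a log2 fold change above 0, with a median of 0.03. MAP2K2, which encodes the kinase MEK2, was at 72.1, 43.9 and 48.6 CPM in the PEBP1-high against 71.8, 62.3 and 39.6 CPM in the PEBP1-low cells, which overlap, with a log2 fold change of -0.07 (SE 0.43). STAT3 was at 0.55 (SE 0.44), MAP3K7, which encodes TAK1, at 1.06 (SE 1.13), KEAP1, an adaptor that directs NRF2 to degradation, at 0.88 (SE 0.54) and MAP1LC3B, which encodes LC3B of autophagosomes, at 0.56 (SE 0.33). Without tumour 1 the list's median was -0.23 and with cells thinned it was 0.27.

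The output of the ERK pathway leaned to lower values, by little. Of 18 transcripts that ERK signalling is known to induce, 6 were above 0 and the median was -0.20, against 11 of 18 and 0.14 in the RKIP tumours. DUSP6, a phosphatase that ERK induces and that switches ERK off, was at 489, 472 and 384 CPM in the PEBP1-high and 324, 483 and 433 CPM in the PEBP1-low cells. It was higher in 1 and lower in 2 tumours, with a log2 fold change of 0.13 (SE 0.22). EGR1 was at -0.38 (SE 0.27), PHLDA1 at -0.07 (SE 0.23), EMP1 at 0.03 (SE 0.18), the cyclin gene CCND1 at -0.16 (SE 0.25) and FOSL1, a subunit of AP-1, at -0.03 (SE 0.25). Without tumour 2 the list's median was -0.02.

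The metastasis genes downstream of RKIP and let-7 also had values near those of all genes. In 11 genes tested, 6 were above 0 and the median was 0.03, against 0.06 in the RKIP tumours and -0.05 and -0.06 without CTRL tumour 1 or 3. BACH1, a transcription factor of bone metastasis, was at 230.3, 110.9 and 128 CPM in the PEBP1-high and 268, 154 and 94.1 CPM in the PEBP1-low cells, with a log2 fold change of -0.09 (SE 0.29). HMGA2, a let-7 target, was at -0.14 (SE 0.36), its paralogue HMGA1 at 0.14 (SE 0.17), CCN2 at 0.03 (SE 0.19), MYC at 0.40 (SE 0.57) and the collagenase gene MMP1 at -0.62 (SE 0.78). For MMP1, 1 cell held up to 95.1% of a sum. A ranking of the CTRL cells on BACH1 in place of PEBP1, which shares cells with this one, also gave 0 calls of 12782 genes (0%), with 501 (3.92%) at an unadjusted p under 0.05.

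The NF-kB and cytokine genes had 4 of 17 above 0 and a median of -0.31, but their medians by tumour were -0.94, -0.30 and 0.24. NFKBIA, the inhibitor that NF-kB itself induces, was at 406, 379 and 447 CPM against 783, 349 and 373 CPM, and so was lower in tumour 1 and higher in the other two. In the RKIP tumours the list's median was -0.09, and without CTRL tumour 1, 2 or 3 it was -0.20, -0.54 and -0.68. The genes beside PEBP1 on chromosome 12, 30 in number, had a median of 0.04, with 16 above 0, and 0.17 with cells thinned.

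The nuclear-encoded subunits of the respiratory chain and ATP synthase had higher values with little scatter. Of 58 tested, 49 were above 0, 28 were higher and 0 were lower in 3 of 3 tumours, and the median was 0.26. By tumour the medians were 0.23, 0.23 and 0.36. In the RKIP tumours 45 of 58 were above 0, with a median of 0.21. The share above 0 among all genes of at least 8 on the log2 CPM scale was 62.8% in the CTRL and 56.2% in the RKIP tumours, against 51.6% and 51.9% of all genes tested, and 21% of those genes were higher in 3 of 3 CTRL tumours. COX4I1, a core subunit of cytochrome c oxidase, was at 1345, 1774 and 1745 CPM in the PEBP1-high and 1325, 1305 and 1289 CPM in the PEBP1-low cells, which did not overlap. Its log2 fold change was 0.30 (SE 0.14). UQCR10 of complex III was at 0.38 (SE 0.17), NDUFS5 of complex I at 0.20 (SE 0.13), UQCRQ at 0.16 (SE 0.12), COX5B at 0.09 (SE 0.14) and ATP5F1E of ATP synthase at -0.04 (SE 0.12).

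Depth went with this list. The ranking of the same CTRL cells on total counts gave 0 calls of 13125 genes (0%) by edgeR, with 585 (4.46%) at an unadjusted p under 0.05, and in it the respiratory list had a median of 0.29, with 50 of 58 above 0, against 54.9% of all genes. With PEBP1 ranked within bins of total counts it had 0.19 in the CTRL and 0.13 in the RKIP tumours, and 50 of 58 were above 0 in CTRL, against 51% of all genes. How much of the value goes with PEBP1 at equal cell quality was not tested.

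Genes of the actin cytoskeleton and other small cytosolic proteins had 18 of 22 above 0 and a median of 0.20, with 0.05, 0.21 and 0.43 by tumour and 0.10 without tumour 3. It was 0.22 in the ranking within bins and 0.02 in the ranking on total counts. ACTG1, cytoplasmic gamma-actin, was at 1616, 1814 and 1327 CPM in the PEBP1-high against 1139, 1063 and 1107 CPM in the PEBP1-low cells, with no overlap and a log2 fold change of 0.51 (SE 0.15). MYL6, a myosin light chain, was at 0.22 (SE 0.10), ACTB at 0.27 (SE 0.17), ARPC2 of the ARP2/3 complex at 0.20 (SE 0.13), TMSB10 at 0.09 (SE 0.12) and TMSB4X, a thymosin that binds actin monomers, at -0.17 (SE 0.18). In the RKIP tumours 15 of 22 were above 0, with a median of 0.09.

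Ribosomal protein genes had 60 of 79 above 0, with a median of only 0.08, and 56 of 78 with 0.05 in the RKIP tumours. Proteasome genes had 16 of 28 above 0 and a median of 0.13, which was -0.02 without tumour 3. PSMB1, the most abundant of them, shows how much 1 sum can do: it was at 372, 774 and 696 CPM in the PEBP1-high and at 5027, 874 and 695 CPM in the PEBP1-low cells, and 1 cell held up to 40.5% of a sum.

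Immediate-early genes, which cells induce within minutes of growth factors, stress or dissociation, had lower values in PEBP1-high cells. Of 24 tested, 5 were above 0, 9 were lower and 2 were higher in 3 of 3 tumours, and the median was -0.33. By tumour it was -0.15, -0.38 and -0.27, and it was -0.38 in the ranking within bins and -0.22 in the ranking on total counts. JUN, a subunit of AP-1, was at 534, 617 and 325 CPM in the PEBP1-high against 759, 789 and 709 CPM in the PEBP1-low cells, with no overlap and a log2 fold change of -0.66 (SE 0.20). PPP1R15A, which restores translation after stress, was at 483, 330 and 288 CPM against 577, 946 and 450.5 CPM, at -0.80 (SE 0.26). HES1, a repressor in the Notch pathway, was at -0.49 (SE 0.20), EGR1 at -0.38 (SE 0.27), KLF6 at -0.17 (SE 0.18) and FOSB at -0.11 (SE 0.17). In the RKIP tumours 6 of 23 were above 0 and the median was -0.23, with JUN at -0.54 (SE 0.23) and PPP1R15A at -0.65 (SE 0.30).

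Genes of the integrated stress response and of stress in the endoplasmic reticulum had 5 of 19 above 0, with a median of -0.28, and 4 of 19 with -0.33 in the RKIP tumours. HSP90B1, a chaperone of the endoplasmic reticulum, was at 2077, 2144 and 2419 CPM in the PEBP1-high and at 2391, 2646 and 3196 CPM in the PEBP1-low cells. The ranges overlapped slightly, and the log2 fold change was -0.30 (SE 0.11). HSPA5, which encodes the chaperone BiP, was at -0.46 (SE 0.20), CALR at -0.28 (SE 0.18), CANX at -0.17 (SE 0.15), ATF4, the transcription factor of the integrated stress response, at -0.16 (SE 0.19) and PDIA4 at -0.06 (SE 0.21). The median was -0.19 in the ranking within bins and 0.03 in the ranking on total counts.

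Nuclear-retained and long noncoding RNAs had 4 of 15 above 0 and a median of -0.29, with 3 of 15 and -0.28 in the RKIP tumours. NEAT1, the scaffold of paraspeckles, was at 809, 904 and 628 CPM in the PEBP1-high and at 1640, 961 and 1238 CPM in the PEBP1-low cells, with no overlap and a log2 fold change of -0.70 (SE 0.21). ZFAS1 was at -0.52 (SE 0.26) and SNHG5 at -0.02 (SE 0.20). Here the ranking on total counts had a median of -0.33, and the ranking within bins -0.11. Without tumour 3 the list's median was -0.01, and with cells thinned it was -0.05.

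Cell cycle genes had different signs in different tumours. The 28 S phase genes had a median of 0.41, with 18 above 0, but by tumour it was -0.21, 0.11 and 0.77, without tumour 3 it was 0.24, with cells thinned 0.12, and in the RKIP tumours 0.02. RRM1, a subunit of ribonucleotide reductase, was at 213, 199 and 195 CPM in the PEBP1-high against 133, 146 and 66.8 CPM in the PEBP1-low cells, at 0.89 (SE 0.31), while it had -0.32 (SE 0.28) in the RKIP tumours. CDC6, a licensing factor, was at 0.99 (SE 0.39), CLSPN at 0.43 (SE 0.31), MCM7 at 0.45 (SE 0.37), GINS2 at 0.53 (SE 0.33) and MCM3 at -0.20 (SE 0.25). The 36 genes of G2 and M phase had a median of 0.15, with -0.40, 0.05 and 0.93 by tumour and -0.17 without tumour 3, and in the ranking on total counts their median was 0.72.

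Hypoxia genes had medians of 0.55, -0.06 and -0.85 by tumour and p53 targets 0.63, -0.89 and 0.09. Genes of glycolysis had a median of 0.02, of autophagy and the lysosome 0.01, and of cholesterol and fatty acid synthesis 0.08. Without tumour 1, 2 or 3 the medians were -0.27, 0.11 and 0.27 for the last of these and -0.65, -0.15 and 0.33 for hypoxia genes. Genes of redox defence and ferroptosis, a process in which RKIP is known to take part through lipid peroxidation, had 12 of 21 above 0 and a median of 0.11. Mesenchymal and matrix genes had 0.08, translation factors 0.12, which was -0.04 without tumour 1, and chaperones -0.08. In the RKIP tumours these lists had, in the same order, -0.10, -0.01 and 0.08. The 8 epithelial genes had 7 above 0 and a median of 0.26, with medians by tumour of -0.09, 0.25 and 0.63 and 0.07 without tumour 3. In the RKIP tumours 4 of the 8 epithelial genes tested were above 0, with a median of 0.03. Interferon-stimulated genes had 0.09, which became -0.28 with cells ranked within bins, -0.16 with cells thinned and -0.06 without tumour 2. Genes of MHC and peptide loading had -0.19, with -0.13, -0.11 and -0.09 by tumour, -0.06 without tumour 3 and 0.10 in the RKIP tumours.

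**Figure D5:**
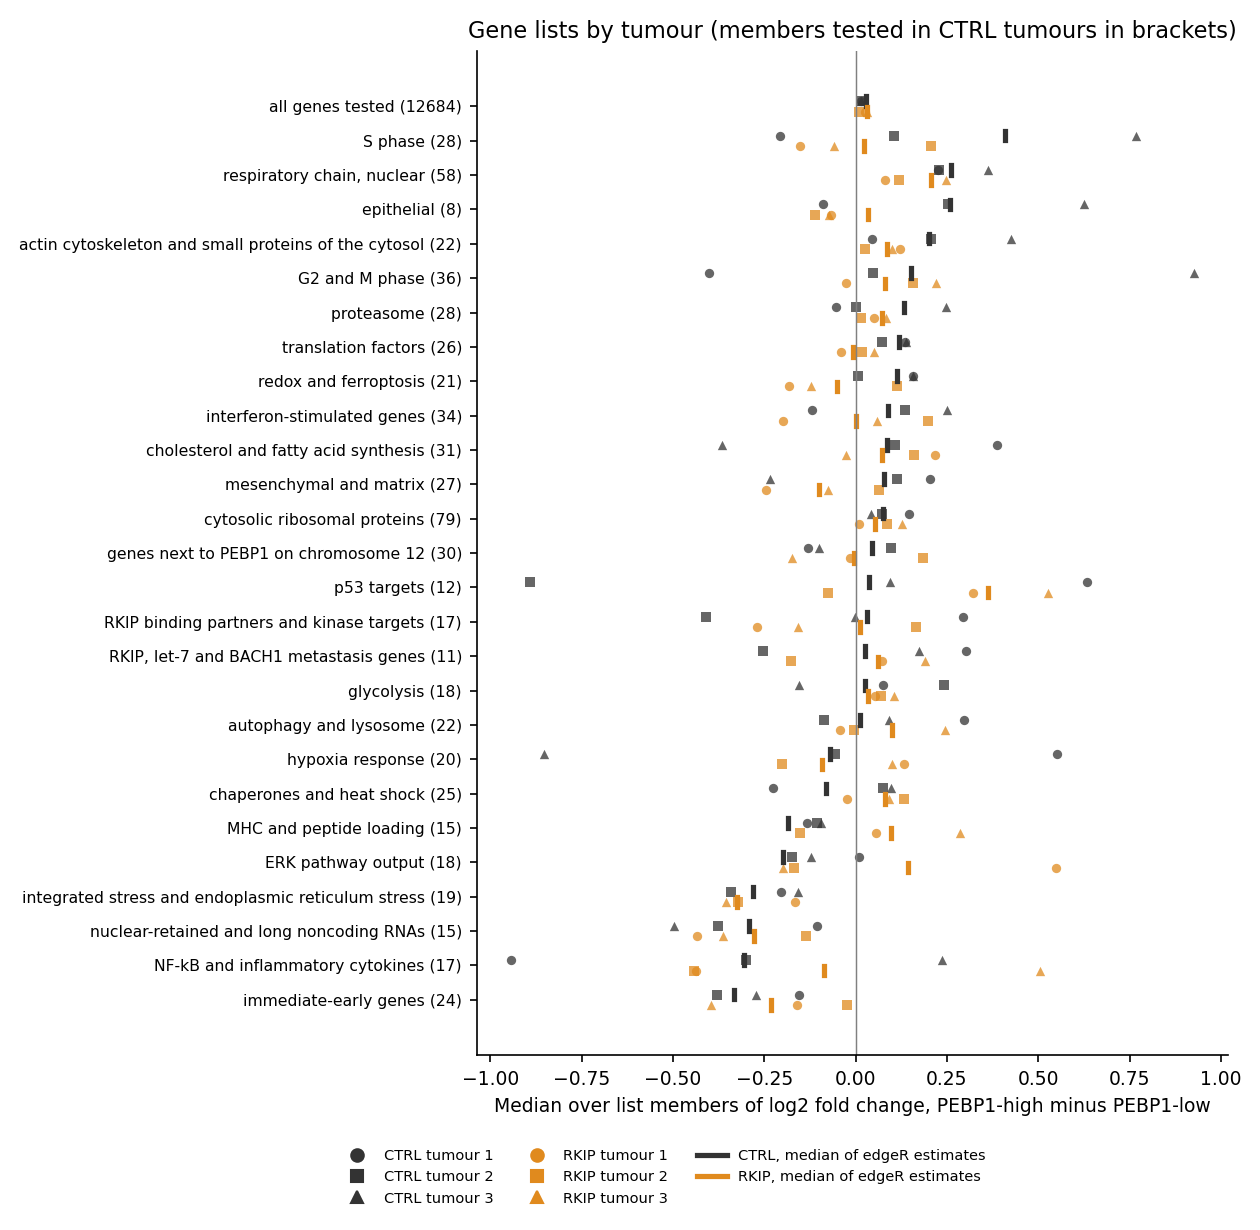
Median log2 fold change between PEBP1-high and PEBP1-low cells over the members of each gene list with at least 8 members tested, with 1 symbol per tumour and a bar at the median of the edgeR estimates, CTRL in black and RKIP in orange. Respiratory chain genes lie at 0.23, 0.23 and 0.36 and immediate-early genes at -0.15, -0.38 and -0.27 in the CTRL tumours, while S phase, G2 and M phase, hypoxia and p53 genes scatter to both sides of 0.

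Transcript length also went with the differences. Over 658 genes with a mean of at least 8 and a known exon length, the Spearman correlation of length with the log2 fold change was -0.23 in the CTRL and -0.17 in the RKIP tumours. It was -0.33 in the ranking of CTRL cells on total counts and, with PEBP1 ranked within bins, -0.23 in the CTRL and -0.10 in the RKIP tumours. Median log2 fold changes in the CTRL tumours were 0.12, 0.12, 0.08 and -0.07 in 4 groups of genes from the shortest to the longest. Respiratory chain genes are short and MALAT1 is long. The part of length in their values was not tested.

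Finally, genes were ranked by how closely their level followed PEBP1 over the cells of a tumour, with each cell reduced to 20000 counts and 220, 245 and 229 cells used. Over 5571 genes the mean Spearman correlation of the 3 CTRL tumours ran from -0.15 to 0.21, with a median of 0.02. The highest were PPIA, the peptidyl-prolyl isomerase cyclophilin A, at 0.21, PGD at 0.20, STMN1, the microtubule regulator stathmin, at 0.19, COX6C at 0.19 and SNRPC, a protein of the spliceosome, at 0.18. The lowest were ARHGEF2 and KLHL28, with -0.15 and -0.14, then RNPC3 with -0.13, and MALAT1 and PPFIA1, both with -0.12. MALAT1 had 0.05, -0.23 and -0.19 in tumours 1, 2 and 3, so tumour 1 went the other way, and 0.03, -0.0047 and -0.03 in the RKIP tumours. PPIA had 0.05, 0.31 and 0.28 in tumours 1, 2 and 3, and PGD 0.25, 0.16 and 0.20. In the RKIP tumours PPIA had 0.01, 0.17 and 0.15 and PGD 0.14, 0.15 and 0.05. These weak correlations in sparse counts are a description without a test.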

How the data were processed

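The deposited values are raw counts per gene and cell. Per the submitters' processing notes, the authors used Trim Galore, STAR and featureCounts and the builds hg38 and hg19. Versions, strand setting and any use of molecular identifiers are not given in the sources used here. The table held 15005 genes, each counted in at least 20 cells, and 1569 cells. Hyphens were restored in 390 gene names from GENCODE 29, and exon lengths came from there. Cells were assigned to arm and tumour by column name. The CTRL and the RKIP tumour that share a name ending were left out together in fits over both arms. The fits blocked on each tumour and held no term for the shared experiment. Nothing was removed as a doublet.

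PEBP1-high and PEBP1-low sums were tested with edgeR 4.0.16 in R 4.3.3 (filterByExpr, TMM, robust quasi-likelihood test, tumour as block, Benjamini-Hochberg, threshold 0.05, two-sided), with PEBP1 left out. The block was used because both classes come from the same tumour. Residual correlations of high and low sums of 1 tumour were -0.0055, -0.028 and -0.0078, and those between tumours ran from -0.015 to 0.027. They do not settle whether pairing matters, since some levels followed the tumour in both classes. Ribosomal protein genes summed to 110364 and 102660 CPM in the high and low cells of tumour 1. In tumour 2 they summed to 134603 and 143663 CPM, and in tumour 3 to 141723 and 137840 CPM. SEs were derived from the F statistic. DESeq2 1.42.0 and limma 3.58.1 (pseudocount 1) served as alternatives. Scripts were tested on simulated data. Cells, lists and tests were chosen with earlier results of these data known. Genes were named by smallest p in each direction, 10 each, of which 1 is not reported here, and list members by mean level, up to 6 a list. P-values of fits within 1 arm rest on the spread between 3 tumours and on dispersions shared in part across genes. Those of fits over both arms rest on 6 tumours.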

Additional observations from a re-analysis of the deposited data

Results flagged for a closer look

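COPZ1 had higher values in PEBP1-high cells in 3 of 3 CTRL tumours and lower values in 3 of 3 RKIP tumours. Its log2 fold change was 1.20 (SE 0.29) in the CTRL and -1.06 (SE 0.18) in the RKIP tumours, a difference of -2.25. It was at 255, 445 and 137 CPM in the PEBP1-high and 545, 777 and 335 CPM in the PEBP1-low cells of the RKIP tumours. The difference had an unadjusted p of 0.000106 and an adjusted p of 1 by edgeR's quasi-likelihood interaction test over 13689 genes. A single cell held 24.6% to 92.4% of each CTRL sum and 38.6% to 88.7% of each RKIP sum. With cells thinned to 20000 counts and ranked again, the log2 fold changes were 0.01 in the CTRL and -0.25 in the RKIP tumours. With cells ranked within bins of total counts they were 0.67 and -0.91. DESeq2 called COPZ1 in the RKIP tumours, at -1.08 (DESeq2 adjusted p = 0.0172), but not in the CTRL tumours, at 1.17 (DESeq2 adjusted p = 0.0652).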

How the results depend on the processing

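By edgeR or limma the count of genes passing in the CTRL tumours was 0 under every alternative run except 1: without tumour 3 it was 2 (range over left-out tumours 0 to 2), namely CHCHD2 at -2.92 and RPS27A at -1.63, of which 1 was a list member (range 0 to 1). DESeq2 gave 42 genes in CTRL, 51 in RKIP and 20 for the difference between the arms. Without the replicate block 0 of 11594 genes passed and 473 had an unadjusted p under 0.05, so the block changed no call. Ranking within bins of total counts brought the geometric mean depth ratio from 1.496 to 0.978 in CTRL and from 1.54 to 0.988 in RKIP tumours. Of 133 values of the named genes under alternatives, 123 kept their direction and side of the threshold and 10 passed it, all by DESeq2. Each named gene had 1 direction in 3 of 3 CTRL tumours, so leaving out a tumour could hardly turn it. The count also leaves out size: with cells thinned, COPZ1 went from 1.20 to 0.01 and LINC02657 from 1.64 to 0.31. Of 145 list medians, 12 moved by more than the spread between tumours, among them interferon-stimulated genes, from 0.09 to -0.28 within bins. Rankings within chip columns and without cells lacking a PEBP1 count were added after seeing the data and gave 0 calls each. The 3 tumours per arm, depth gaps and sums carried by single cells limit the precision.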
